A study of Mus musculus with 43 samples.

Results

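The genes described here are 10 genes of pulmonary surfactant and of the alveolar type 2 cell: Sftpa1, Sftpb, Sftpc, Sftpd, Abca3, Lamp3, Napsa, Slc34a2, Etv5 and Lpcat1. They were taken by symbol, as the rows of the deposited counts table whose NCBI Gene ID maps to those names, and make up 10 of the 24475 genes in the table. All 10 were found, and all 10 passed the filter on low counts that left 15979 genes for testing. No member was near that filter, since the lowest value of any member in any mouse was 95.8 CPM (a gene's counts scaled to a common library size).

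Surfactant is the film of phospholipid and protein that keeps the air spaces of the lung from collapsing, and alveolar type 2 cells make it, store it in lamellar bodies, secrete it and take it up again. The small hydrophobic proteins SP-B and SP-C spread and hold the film, whereas SP-A and SP-D are collectins, soluble lectins that bind the sugars of microbes and inhaled particles. Type 2 cells are also progenitors of the flat alveolar type 1 cells, and the programme that keeps their identity is known to rest on transcription factors such as NKX2-1.

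RNA of whole lung was sequenced from 43 female mice of mixed 129S6/C57BL/6 background. The design text gives an age of 8 to 12 weeks, which cannot be the age at sampling of mice exposed for 19 weeks. Age at sampling may therefore differ between groups. The allergen was house dust mite extract (HDM), delivered intranasally on 3 occasions each week. The groups without antibody were saline (5 mice, length of treatment not given), HDM for 11 weeks (6 mice) and HDM for 19 weeks (7 mice). The groups with antibody were all exposed to HDM for 19 weeks and received an isotype control antibody (7 mice), itepekimab against IL-33 with isotype (6 mice), dupilumab against IL-4Rα with isotype (7 mice), or itepekimab and dupilumab together, called the combination (5 mice). According to the design text, mice for antibody studies carried human sequence in place of their own IL-4, IL-33 and IL-4Rα ectodomain. The labels do not say which groups carried these alleles, nor which of the starts of antibody in the design text (day -3, week 4 or week 11 of exposure) applied. The design text names 4, 15 or 19 weeks of exposure, and the labels, which were followed here, name 11 or 19.

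The libraries held between 11932579 and 26749395 counts. They differed in the GC slope, a measure of how much higher GC-rich transcripts read in a library than in the average library, in log2 CPM per 10 percentage points of transcript GC. The mean slope was -0.622 ± 0.181 (SD, n = 5) in saline, -0.375 ± 0.198 (n = 6) at 11 weeks, 0.159 ± 0.541 (n = 7) at 19 weeks and 0.340 ± 0.879 (n = 5) in the combination. With isotype it was -0.134 ± 0.272 (n = 7), with anti-IL-33 0.272 ± 0.649 (n = 6) and with anti-IL-4Rα 0.264 ± 0.682 (n = 7). A slope above 0.75 was found in 10 libraries: replicates 2 and 7 at 19 weeks, 4 and 5 of anti-IL-33, 2, 6 and 8 of anti-IL-4Rα, and 1, 5 and 8 of the combination. Calls of the 10 genes are given with and without these libraries; the gene lists, markers, pairs and likeness further on are given for all libraries only. Of 5 alveolar type 2 markers outside the 10 genes (Cxcl15, Lgi3, Egfl6, Hc and Muc1) none was at 0 in any group, and their summed level was 1447 to 3253 CPM in saline and 3542 to 5867 CPM at 19 weeks. The labelled tissue therefore carried the markers of the cell type named.

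Against saline, most of the surfactant and type 2 genes rose after 19 weeks of HDM, and none of the 10 was called lower at either time. At 11 weeks 2 of 10 passed the test (adjusted p under 0.05, edgeR, adjusted over all 15979 genes), Sftpa1 and Sftpd, where 8.65% of all genes were called higher. At 19 weeks 8 of 10 passed, all but Sftpc and Lamp3, against 19.2% of all genes. In the isotype group 4 of 10 passed (Sftpa1, Sftpd, Slc34a2 and Lpcat1), against 13.0% of all genes. In the combination 7 of 10 passed (all but Abca3, Slc34a2 and Etv5), against 27.8% of all genes. Over the 10 genes the median change on the log2 scale was 0.32 at 11 weeks, 0.94 at 19 weeks, 0.79 with isotype and 1.07 in the combination, while that of all genes tested lay between 0.00 and 0.01. Every exposed mouse was above every saline mouse for 3 members at 11 weeks (11.1% of all genes), for 6 at 19 weeks (13.9%), for 4 with isotype (13.5%) and for 4 in the combination (8.07%). These 4 comparisons share the 5 saline mice. In bulk lung, more type 2 cells, more RNA per type 2 cell and RNA from other cells cannot be told apart.

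**Figure D1:**
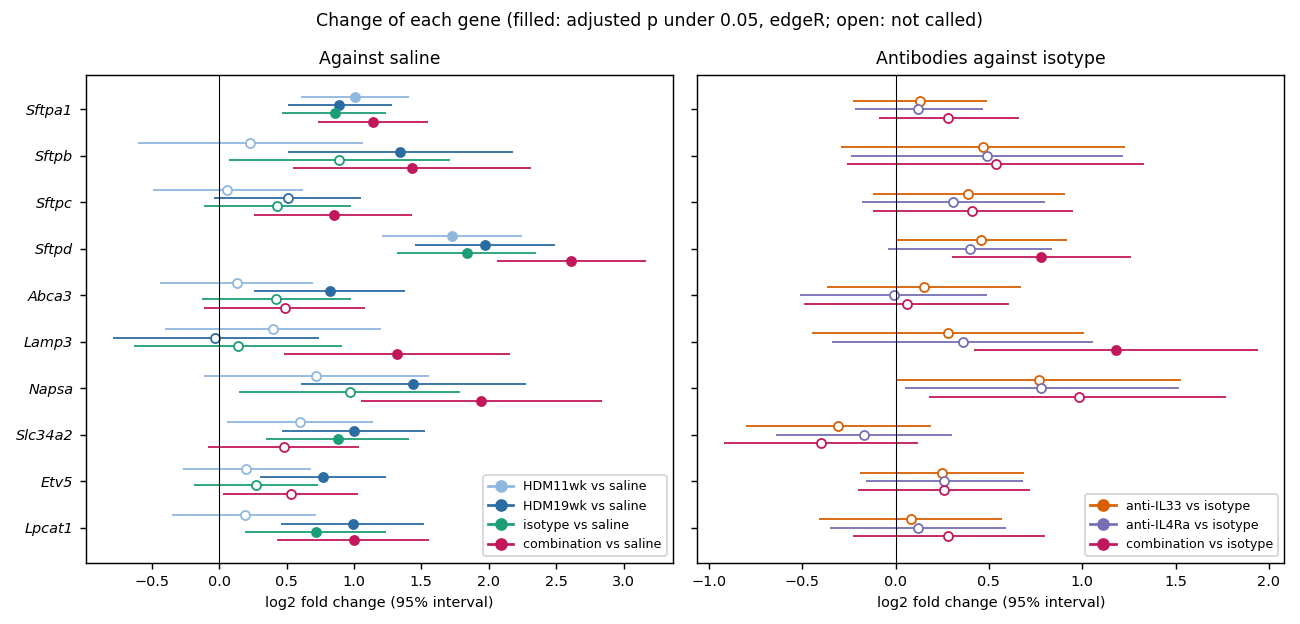
Log2 fold change of each of the 10 genes with its 95% interval, against saline (left) and for each antibody against isotype (right). Filled points passed the test and open points did not. Sftpd and Sftpa1 are filled in all 4 comparisons with saline, and on the right only Sftpd and Lamp3 in the combination are filled.

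The counts against saline moved with the processing. With the GC slope as a covariate 4 of 10 were called at 19 weeks (Sftpa1, Sftpd, Slc34a2 and Lpcat1), and 3 of 10 in the combination, where 3129 and 1853 of 15979 genes were called higher. Under this setting 3 of 10 (Sftpa1, Sftpd and Slc34a2) were called both at 11 weeks and with isotype. There 2406 and 3060 genes were called higher. Without the 10 libraries of high slope, the counts were 4 at 11 weeks, 8 at 19 weeks, 7 with isotype and 4 in the combination, and 2764, 3768, 4028 and 1735 of 16414 genes were called higher. The calls gained were Napsa and Slc34a2 at 11 weeks, and Sftpb, Napsa and Abca3 with isotype. With plain library totals in place of TMM factors, a setting chosen after seeing the data, the counts were 2, 3, 1 and 2, and the median of all genes shifted to -0.13, -0.34, -0.22 and -0.55 on the log2 scale. Over all genes this setting also moved the higher calls from 3072 of 5562 to 1807 of 5297 at 19 weeks, from 2073 of 4050 to 1426 of 3668 with isotype, and from 4441 of 7681 to 2067 of 7593 in the combination. Without saline replicate 5, which was the lowest saline mouse for every member but Abca3 and Slc34a2, the isotype count fell from 4 to 2.

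Expressed per kilobase of transcript and averaged over all 43 libraries, Sftpc stood highest, at 17138 CPM per kb. Sftpb followed at 2580, Sftpa1 at 1515, Sftpd at 1471, Slc34a2 at 620, Napsa at 375, Lamp3 at 196, Abca3 at 113, Lpcat1 at 63.1 and Etv5 at 53.4 CPM per kb. The length used is that of 1 GENCODE transcript a gene, which for Sftpa1 was 2854 bases, so the place of Sftpa1 in this order depends on the transcript chosen. Without the correction for length, Sftpc held a mean of 13573 CPM and was the gene of rank 3 in the whole table. The 10 genes together took 2.21% ± 0.388 of all counts in saline (SD, n = 5). The share was 2.67% ± 0.281 after 11 weeks (n = 6) and 2.98% ± 0.441 after 19 weeks (n = 7). In the 7 isotype mice it was 2.93% ± 0.249, in the 6 mice given itepekimab 3.02% ± 0.416, in the 7 given dupilumab 2.68% ± 0.769 and in the 5 given both 2.97% ± 0.859. Within that share the composition moved: Sftpc was 54.7% of the members' counts in saline (range 51.3% to 60.1%) and 43% at 11 weeks (36.7% to 46.1%), with no overlap between these groups.

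**Figure D2:**
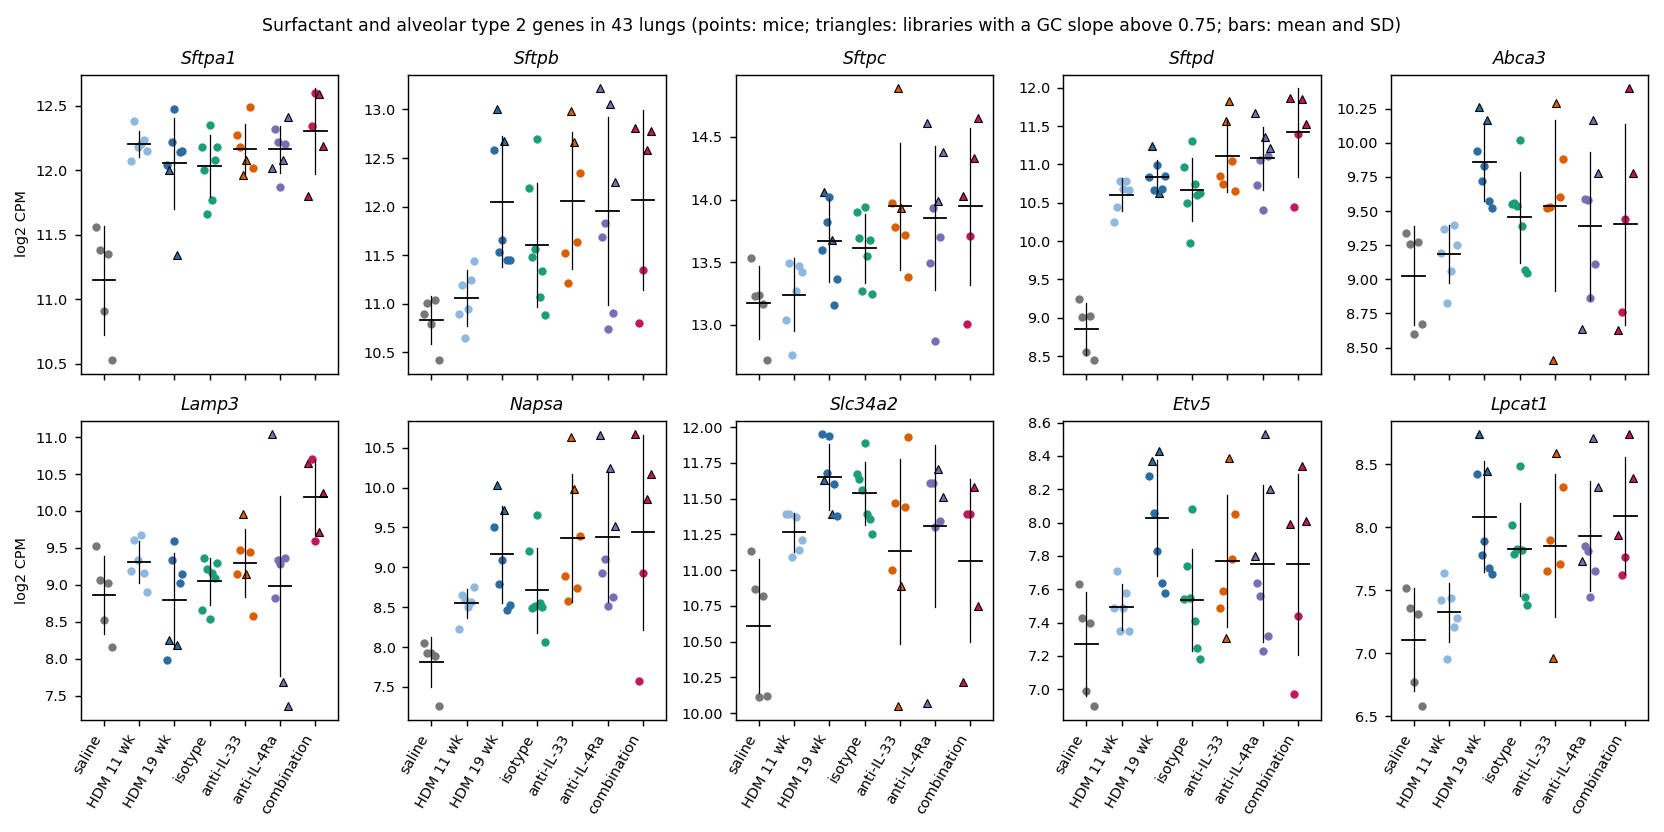
Log2 CPM of each gene in every mouse, by group; triangles are the 10 libraries with a GC slope above 0.75, horizontal bars are group means and vertical bars SD. For Sftpd every HDM-exposed mouse of all 6 groups lies above every saline mouse; for Sftpc and Abca3 the groups overlap more.

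Only the collectin genes Sftpd and Sftpa1 were called in every comparison with saline, and the change was clearest for Sftpd. At 19 weeks the change of Sftpa1 was smaller than those of Napsa, Sftpb, Slc34a2 and Lpcat1. Sftpd encodes SP-D (Gene ID 20390, chr14:41172212-41185198) and Sftpa1 encodes SP-A (Gene ID 20387, chr14:41131788-41136373). Both lie on chromosome 14, and 35.8 kb separate the end of Sftpa1 from the start of Sftpd. Between them lies Mbl1, a gene for a mannose-binding lectin, which had 573 counts over all 43 libraries, against 3382438 for Sftpa1 and 1380703 for Sftpd. Mbl1 was chosen for its place and not by the rule for named genes. The RefSeq promoter table (GRCm38.p6), which covers 250 bases before to 50 after the annotated start, has an entry for 7 of the 10 members, all but Sftpc, Sftpd and Napsa. The window of Sftpa1 (chr14:41131538-41131837, plus strand) is shown because Sftpa1 is 1 of only a pair of the 7 members whose window holds CTCAAG on either strand, the core letters of a known NKX2-1 site. These letters are in capitals.
Sftpa1: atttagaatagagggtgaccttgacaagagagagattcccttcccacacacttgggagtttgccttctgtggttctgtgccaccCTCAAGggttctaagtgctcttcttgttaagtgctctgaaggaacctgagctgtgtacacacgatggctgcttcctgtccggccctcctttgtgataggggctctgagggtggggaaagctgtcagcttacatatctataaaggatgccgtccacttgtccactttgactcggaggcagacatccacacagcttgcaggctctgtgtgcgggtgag
Of all 32851 promoter windows in the table, 15.9% hold CTCAAG on either strand. The match is a description of the letters in this window and not evidence of a bound site.

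Sftpd was at 608, 516, 374, 519 and 350 CPM in the 5 saline mice. At 11 weeks its lowest, median and highest values were 1214, 1637 and 1772 CPM, and at 19 weeks 1588, 1825 and 2426 CPM. With isotype they were 1005, 1581 and 2543 CPM. Every exposed mouse of these groups was above every saline mouse. The 5 combination mice had 3730, 1401, 2704, 3691 and 2955 CPM, also all above saline, with replicate 2 the lowest. The anti-IL-33 group ranged from 1606 to 3638 CPM around a median of 1977, and the anti-IL-4Rα group from 1357 to 3261 CPM around a median of 2203. Over saline, the log2 fold change of Sftpd was 1.73 ± 0.26 at 11 weeks (SE, adjusted p 4.51e-06), 1.97 ± 0.26 at 19 weeks (adjusted p 2.14e-07), 1.84 ± 0.25 with isotype (adjusted p 7.18e-07) and 2.61 ± 0.27 in the combination (adjusted p 4.3e-09). As folds, these are 3.31, 3.92, 3.57 and 6.12. Sftpd was called in each of these 4 comparisons under all 11 other settings and whichever single library was left out. Its smallest log2 fold change over those settings was 1.58 at 19 weeks and 1.98 in the combination.

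Sftpa1 was at 3023, 2666, 1918, 2610 and 1480 CPM in saline. At 11 weeks the lowest, median and highest mice had 4289, 4670 and 5317 CPM, and at 19 weeks 2593, 4523 and 5686 CPM. With isotype they had 3230, 4330 and 5215 CPM. The 11-week and isotype mice were all above saline, and at 19 weeks only replicate 7 fell within the saline range. The 5 combination mice had 3566, 5200, 6199, 6148 and 4687 CPM, all above saline. For Sftpa1 the log2 fold change was 1.01 ± 0.20 at 11 weeks (SE, edgeR adjusted p 0.000253), 0.89 ± 0.19 at 19 weeks (adjusted p 0.000424), 0.86 ± 0.19 with isotype (adjusted p 0.000755) and 1.14 ± 0.20 in the combination (adjusted p 6.83e-05). In the 6 exposed groups the mean log2 CPM of Sftpa1 lay between 12.03 and 12.30, with no neighbouring groups in that order further apart than the larger of their SDs. The call held at 11 weeks under every setting. It was lost with plain library totals at 19 weeks (adjusted p 0.0999), with isotype (0.0963) and in the combination (0.0712).

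A ratio of counts within the same library needs no scaling between libraries. Sftpc was taken as the denominator, a choice made after the values were seen, so these ratios are a description. In saline there were 0.0519 Sftpd counts per Sftpc count in the median mouse (range 0.0387 to 0.0564). The medians were 0.153 after 11 weeks, 0.142 after 19 weeks, 0.130 under isotype, 0.136 under anti-IL-33, 0.147 under anti-IL-4Rα and 0.179 in the combination. The lowest exposed mouse, at 0.0999 in the anti-IL-33 group, was above the highest saline mouse. Geometric means were 2.61-fold (isotype) to 3.47-fold (combination) those of saline. The transcripts of Sftpd and Sftpc have similar GC contents, 54.0% and 54.8%. For Sftpa1, whose transcript has 44.0% GC, the ratio was 0.256 in the median saline mouse (0.198 to 0.284) and 0.470 at 11 weeks (0.415 to 0.668), with no overlap. At 19 weeks the Sftpa1 ratio was 0.339 (0.198 to 0.494) and overlapped with saline. Higher ratios were not limited to the collectins. At 11 weeks that of Napsa was 0.036 (0.0335 to 0.0552), against 0.0251 in saline (0.0224 to 0.0258). That of Slc34a2 was 0.252 (0.2 to 0.318) at 11 weeks, against 0.19 in saline (0.115 to 0.197). Neither overlapped with saline at 11 weeks, whereas the ratios of Sftpb, Abca3, Lamp3, Etv5 and Lpcat1 did.

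**Figure D3:**
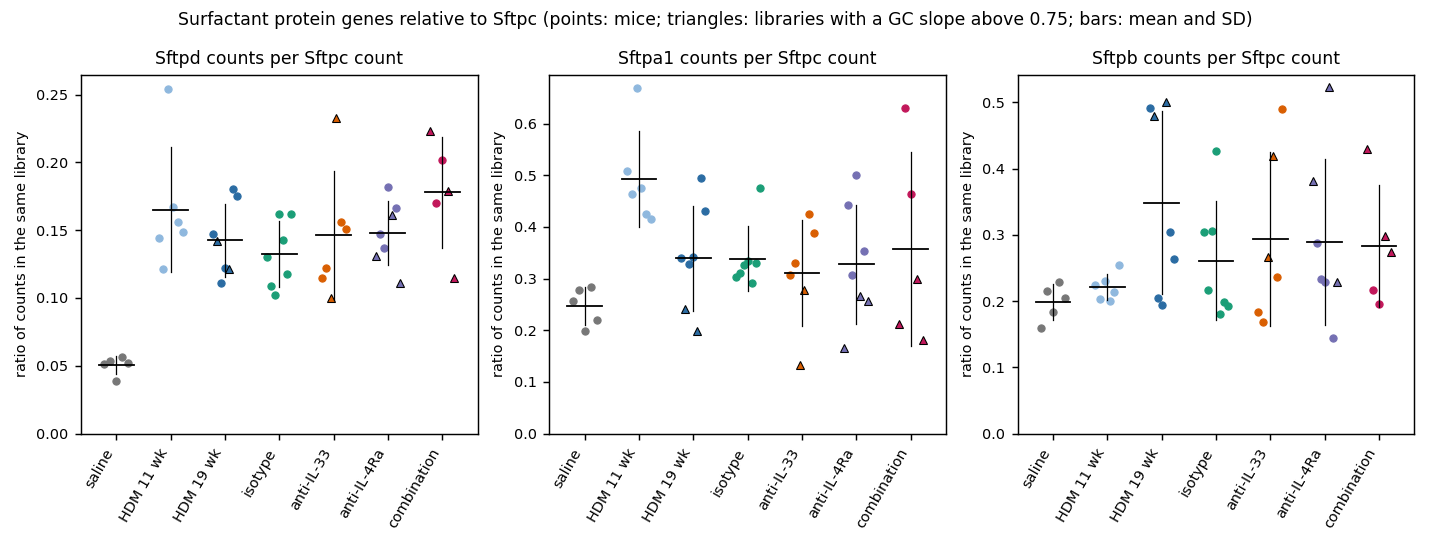
Counts of Sftpd, Sftpa1 and Sftpb per count of Sftpc in each mouse, by group (horizontal bars: mean, vertical bars: SD, triangles: the 10 libraries with a GC slope above 0.75). Saline mice lie at 0.0387 to 0.0564 for Sftpd, below all exposed mice, while the Sftpb ratio overlaps with saline in every group.

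Neither hydrophobic protein was called at 11 weeks; a difference from the collectins was not tested. Sftpc encodes SP-C (Gene ID 20389, chr14:70520941-70524081), the protein most specific to type 2 cells. Saline mice had 11800, 9592, 9667, 9202 and 6740 CPM. The 11-week mice ranged from 6954 to 11487 CPM around a median of 10390, all within the saline range. At 19 weeks the values were 9158 to 17030 CPM with a median of 13129, and again overlapped with saline. Its log2 fold change was 0.06 ± 0.28 at 11 weeks (SE, 95% interval -0.49 to 0.62) and 0.51 ± 0.27 at 19 weeks (-0.04 to 1.05), neither called. In the combination the 5 mice had 16725, 8237, 13362, 20580 and 25726 CPM, and the change of 0.85 ± 0.29 was called (edgeR adjusted p 0.0167). That call was lost without the libraries of high GC slope, with the slope as a covariate, with plain totals, in a fit of the compared groups alone, and without saline replicate 5 or combination replicate 8 (highest adjusted p with 1 library left out 0.0821).

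Sftpb encodes SP-B (Gene ID 20388, chr6:72304610-72314373), without which surfactant does not work. Its promoter window (chr6:72304360-72304659, plus strand) is the other one that holds CTCAAG, here with 2 matches in capitals.
Sftpb: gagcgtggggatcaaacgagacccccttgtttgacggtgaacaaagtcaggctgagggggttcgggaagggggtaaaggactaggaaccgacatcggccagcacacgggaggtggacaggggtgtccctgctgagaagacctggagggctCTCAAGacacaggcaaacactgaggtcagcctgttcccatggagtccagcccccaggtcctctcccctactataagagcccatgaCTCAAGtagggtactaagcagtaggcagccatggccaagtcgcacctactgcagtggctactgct
Saline mice had 1894, 2058, 1770, 2106 and 1374 CPM of Sftpb. The 11-week mice had 1603 to 2775 CPM (median 2149) and overlapped with them. At 19 weeks all 7 mice were above saline, at 2790 to 8174 CPM with a median of 3231, and replicates 1, 2 and 7 stood apart from the other 4 at 6116, 8174 and 6584 CPM. For Sftpb the log2 fold change was 0.23 ± 0.41 at 11 weeks (SE, edgeR adjusted p 0.787) and 1.34 ± 0.41 at 19 weeks (adjusted p 0.0114). In the combination it was 1.43 ± 0.44 (adjusted p 0.00854), with replicates 1, 5 and 8 at 7192, 6125 and 7056 CPM and replicates 2 and 3 at 1780 and 2618 CPM. That call was lost without the libraries of high slope, with the slope as a covariate (0.09) and with plain totals.

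Napsa encodes napsin A (Gene ID 16541, chr7:44572445-44586846), an aspartic protease that takes part in cutting the SP-B precursor. It was at 264, 242, 243, 238 and 153 CPM in saline, at 298 to 432 CPM (median 382) at 11 weeks and at 355 to 1048 CPM (median 546) at 19 weeks. All mice of both exposed groups were above all saline mice. The change at 11 weeks, 0.72 ± 0.41 on the log2 scale, did not pass the test (SE, edgeR adjusted p 0.277). The change at 19 weeks, 1.44 ± 0.41, did (adjusted p 0.00682), as did that in the combination, 1.94 ± 0.44 (adjusted p 0.000964). The combination mice spread from 189 CPM in replicate 2 to 1631 CPM in replicate 1, and replicate 2 lay within the saline range. Without the libraries of high slope, or with the slope as a covariate (0.47), Napsa was not called in the combination. At 11 weeks and with isotype it was called without these libraries, in a fit of the compared groups alone and with limma voom.

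Sftpb and Napsa followed the GC slope of the library closely. Over the 43 libraries the log2 CPM of each correlated with the slope at Pearson r = 0.92, with Spearman rho of 0.88 for Sftpb and 0.87 for Napsa. The permutation p of each was 1e-05, the smallest that 100000 permutations can give, and 1.7e-05 (Pearson) or 2e-05 (Spearman) after adjustment over the 10 genes. When the 2 libraries with the most extreme slopes were left out, r was again 0.92 for both, and after subtraction of the group means it was 0.90 for both. The slope is computed from the expression of all genes in the same libraries, so these p values are no independent test. The transcripts of Sftpb and Napsa hold 58.1% and 54.9% GC. Sftpc, with a GC content close to that of Napsa, had r = 0.75 (rho 0.73), Sftpd 0.69 (0.77), Etv5 0.73 (0.62) and Lpcat1 0.65 (0.66), with a permutation p of 3e-05 or less. For Abca3 r was 0.40 and rho 0.47 (permutation p 0.0076 and 0.0018). For Sftpa1 r was 0.16, for Lamp3 -0.10 and for Slc34a2 -0.13, with rho of 0.08, -0.16 and 0.12 and a permutation p of 0.3 or more. With the slope as a covariate the 19-week change was 0.29 for Sftpb (adjusted p 0.273) and 0.42 for Napsa (adjusted p 0.0961), whereas both stayed called without the libraries of high slope. Whether the slope reflects the preparation of the libraries or the lungs was not tested.

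**Figure D4:**
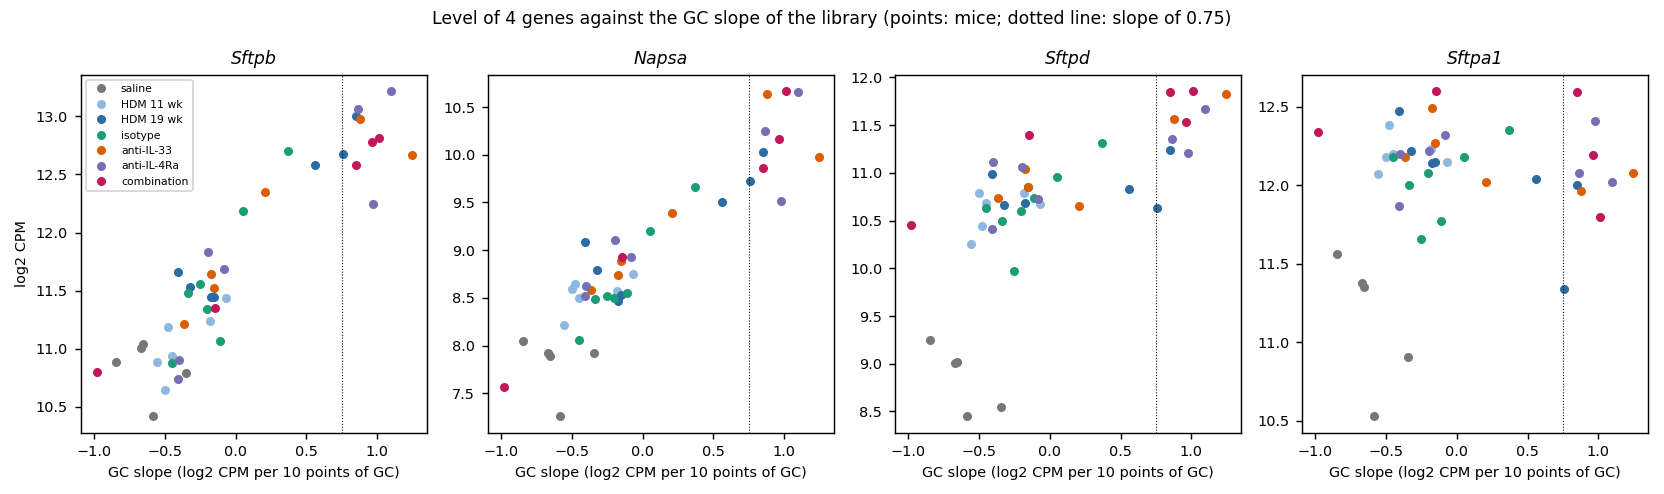
Log2 CPM of Sftpb, Napsa, Sftpd and Sftpa1 against the GC slope of the library, 1 point a mouse, coloured by group; the dotted line marks a slope of 0.75. Sftpb and Napsa rise along the slope (r = 0.92 each), while for Sftpa1 (r = 0.16) the saline mice lie below most exposed mice at similar slopes.

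Slc34a2 was called at 19 weeks and with isotype in the main edgeR fit, and not at 11 weeks or in the combination. It encodes the sodium-phosphate cotransporter NaPi-IIb (Gene ID 20531, chr5:53049353-53071664), through which type 2 cells take up phosphate. Saline mice had 2241, 1867, 1108, 1809 and 1115 CPM. The values were 2181 to 2692 CPM (median 2510) at 11 weeks, 2658 to 3946 CPM (median 3169) at 19 weeks and 2436 to 3785 CPM (median 3010) with isotype. The 19-week and isotype mice were all above saline, and at 11 weeks all were except replicate 3, which fell just under saline replicate 1. Slc34a2 changed by 0.60 ± 0.27 on the log2 scale at 11 weeks (SE, edgeR adjusted p 0.13, not called), 1 ± 0.26 at 19 weeks (adjusted p 0.00332) and 0.88 ± 0.26 with isotype (adjusted p 0.0105). In the combination the mice had 1196, 2679, 2684, 3051 and 1726 CPM, which overlapped with saline, and the change of 0.48 ± 0.28 was not called (adjusted p 0.145). The 19-week call held with the slope as a covariate and was lost with plain totals (adjusted p 0.131), and the isotype call was also lost without saline replicate 5 (adjusted p 0.0516). At 11 weeks Slc34a2 was called with the slope as a covariate and without the libraries of high slope. It was also called there in the compared groups alone and with limma voom.

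Abca3 encodes the transporter that loads phospholipid into lamellar bodies (Gene ID 27410, chr17:24351921-24410204). Its 5 saline mice had 647, 615, 387, 618 and 407 CPM, and the 19-week mice had 732 to 1223 CPM (median 911), all above them. The 11-week mice, at 455 to 676 CPM, overlapped with saline. On the log2 scale the change was 0.13 ± 0.28 at 11 weeks and 0.82 ± 0.28 at 19 weeks (SE, edgeR adjusted p 0.825 and 0.0214). The 19-week call was lost with the slope as a covariate, with plain totals (0.43, adjusted p 0.27), and without saline replicate 3 or 5. It was also lost with the replicate number as a block. Abca3 overlaps Abca17, Gm25618 and D330041H03Rik in the RefSeq annotation, and Slc34a2 overlaps Gm17182, so reads there may be shared if the counting, which is not given in the sources used here, did not use the strand. The other 8 members overlap no annotated gene.

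Lpcat1 encodes an acyltransferase that makes the saturated phosphatidylcholine of surfactant (Gene ID 210992, chr13:73467231-73516420). It was at 184, 164, 109, 158 and 95.8 CPM in saline and at 198 to 427 CPM (median 238) at 19 weeks, with no overlap. Lpcat1 changed by 0.19 ± 0.27 on the log2 scale at 11 weeks (SE, not called), 0.99 ± 0.26 at 19 weeks (edgeR adjusted p 0.00367), 0.72 ± 0.26 with isotype (adjusted p 0.0384) and 1 ± 0.28 in the combination (adjusted p 0.00474). The 19-week call was lost with plain totals (adjusted p 0.0788), and that in the combination also without the libraries of high slope and with the slope as a covariate. The isotype call was lost with no filter on low counts, with the slope as a covariate and with plain totals (highest adjusted p 0.21). It was also lost in 7 of 12 fits that left out 1 mouse (saline replicates 2, 3, 4 and 5, isotype replicates 1, 4 and 6), with a highest adjusted p of 0.131. Etv5, a transcription factor downstream of FGF signalling that maintains type 2 cell identity (Gene ID 104156, chr16:22381313-22439570), was at 198, 172, 127, 169 and 119 CPM in saline. At 19 weeks it was at 191 to 344 CPM, where replicate 9 fell within the saline range. Its change was called at 19 weeks (0.77 ± 0.23, adjusted p 0.0104) and not at 11 weeks (0.20 ± 0.24, adjusted p 0.654), with isotype (0.27 ± 0.23, adjusted p 0.413) or in the combination (0.53 ± 0.25, adjusted p 0.0718). The 19-week call of Etv5 was lost with the slope as a covariate and with plain totals (highest adjusted p 0.187).

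Lamp3 encodes DC-LAMP, a membrane protein of lamellar bodies that is also a marker of mature dendritic cells (Gene ID 239739, chr16:19653381-19706365). Its promoter window (chr16:19706316-19706615, minus strand) is shown because Lamp3 was the only member whose mice did not overlap between the combination and isotype. The capitals mark TGTTTNC, letters of a known FOXA site searched on both strands, with 2 matches here; 20.5% of all promoter windows hold it, as do those of Sftpb and Etv5.
Lamp3: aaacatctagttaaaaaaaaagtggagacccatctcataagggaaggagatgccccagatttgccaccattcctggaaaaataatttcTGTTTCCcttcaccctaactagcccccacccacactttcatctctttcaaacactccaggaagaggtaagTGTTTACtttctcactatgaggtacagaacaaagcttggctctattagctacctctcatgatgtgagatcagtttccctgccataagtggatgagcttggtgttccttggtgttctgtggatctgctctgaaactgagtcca
Without antibody Lamp3 did not pass the test at either time. Saline mice had 738, 535, 370, 518 and 286 CPM, the 11-week mice 480 to 817 CPM and the 19-week mice 253 to 775 CPM. Its log2 fold change was 0.40 ± 0.39 at 11 weeks (SE, 95% interval -0.40 to 1.20) and -0.03 ± 0.38 at 19 weeks (-0.79 to 0.74), and all these groups overlapped.

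The antibody groups were compared with isotype to ask what blocking IL-33, IL-4Rα or both changed in lungs under exposure. Lamp3 was at 373 to 657 CPM in the isotype mice (median 573) and at 1608, 1666, 776, 842 and 1222 CPM in the combination. Every combination mouse was above every isotype mouse, which holds for 1.83% of all genes in that direction. Lamp3 differed by 1.18 ± 0.38 on the log2 scale (SE, edgeR adjusted p 0.032). Sftpd was the other call, with a log2 fold change of 0.78 ± 0.24 (adjusted p 0.028), but its groups overlapped: combination replicate 2, at 1401 CPM, lay within the isotype range. These are 2 of 10 members in a comparison in which 12.6% of all genes were called higher, so the count itself is near the background. Napsa, at 0.98 ± 0.39, did not pass (adjusted p 0.0668), though DESeq2 and voom called it higher. Without the libraries of high slope the estimate was -0.39 for Napsa and -0.63 for Sftpb, neither called. The other 7 lay between -0.40 (Slc34a2) and 0.54 (Sftpb) on the log2 scale, with adjusted p of 0.228 or more.

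Both calls in the combination depended on single libraries. Without isotype replicate 3, combination replicate 1 or combination replicate 8, neither gene was called. Sftpd was also lost without isotype replicate 2 or combination replicate 5, and Lamp3 without isotype replicate 1 or 8, with adjusted p of up to 0.145 and 0.144. Both were lost with plain totals (under which the median of all genes was -0.30 and 237 of 730 calls were higher, against 2019 of 3029). Both were also lost with the replicate number as a block, and Sftpd in a fit of the compared groups alone. Without the libraries of high slope, which leaves 2 combination mice, Lamp3 alone was called. Over the 11 other settings the log2 fold change ranged from 0.75 to 1.25 for Lamp3 and from 0.29 to 1.18 for Sftpd. The 5 other markers of mature dendritic cells (Ccr7, Fscn1, Ccl22, Il4i1 and Cacnb3) were all detected in every group. Ccl22 and Cacnb3 were called higher in the combination than with isotype, and the other 3 of the 5 were not. Their summed level was 40.9 to 62.3 CPM in saline, 124 to 354 CPM with isotype and 83.0 to 671 CPM in the combination. Markers of other cells were also called higher in the combination than with isotype: 3 of 4 of club cells (median log2 fold change 1.60), 2 of 4 of ciliated cells, 3 of 5 of alveolar macrophages and 2 of 4 of leukocytes. Among goblet cell markers Muc5b and Spdef were higher and Clca1 lower. Among type 1 cell markers Ager and Aqp5 were higher and Pdpn lower. Cldn5 and Tie1 of endothelium and Dcn of fibroblasts were higher. No marker of all epithelium was called. Of the alveolar type 2 markers given above, Egfl6 was lower (log2 fold change -1.32 ± 0.46, edgeR adjusted p 0.0436). Cxcl15, Lgi3, Hc and Muc1 were not called. The part of any of these cells in the levels of Lamp3 and Sftpd was not tested.

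Neither single antibody gave a call among the 10 genes against isotype. With anti-IL-33 the log2 fold changes lay between -0.31 (Slc34a2) and 0.77 (Napsa), with adjusted p of 0.274 or more (edgeR). With anti-IL-4Rα they lay between -0.17 (Slc34a2) and 0.78 (Napsa), with adjusted p of 0.33 or more. Only Napsa had an unadjusted p under 0.05 in each, and DESeq2 and limma voom also called 0 of 10. In each of these comparisons edgeR called 0% of all 15979 genes, with 2878 and 2242 genes at an unadjusted p under 0.05. Over all genes DESeq2 called 17 and 46, and voom 1019 and 12. The 3 antibody comparisons share the isotype mice. For Sftpd the log2 changes were 0.46 ± 0.23 (SE) with itepekimab, 0.40 ± 0.22 with dupilumab and 0.78 ± 0.24 with both. The 95% intervals of the Sftpd changes with the single antibodies ran from 0.00 to 0.92 and from -0.04 to 0.84, and both hold the estimate for the combination.

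Between the combination and either single antibody 0 of 10 genes were called by edgeR and by DESeq2. Over all genes edgeR called 0.0438% against anti-IL-33 and 0.119% against anti-IL-4Rα. In each comparison 1 gene, Lamp3, had an unadjusted p under 0.05. Lamp3 differed by 0.90 ± 0.39 from anti-IL-33 (SE, adjusted p 0.945) and by 0.82 ± 0.38 from anti-IL-4Rα (adjusted p 0.426). In the anti-IL-4Rα group 1 mouse, replicate 2, had 2106 CPM of Lamp3, and the other 6 had 164 to 655 CPM. Without that library the Lamp3 difference was 1.42 and was called (adjusted p 0.0133). Limma voom with sample weights called 3 of 10 higher than with anti-IL-33 (Sftpb, Sftpd and Napsa) and 4 of 10 higher than with anti-IL-4Rα (those 3 and Lamp3), where voom called 3736 and 4165 of all 15979 genes higher, so these counts are near the background. The interaction of the antibodies was called for 0 of 10 genes, with 0 at an unadjusted p under 0.05 and 0 by DESeq2 or voom, while edgeR called 0% of all genes. The interaction term was largest for Napsa, at -0.58 ± 0.55.

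Between 19 and 11 weeks of exposure 0 of 10 genes were called by edgeR, and 0.106% of all genes. An unadjusted p under 0.05 was found for 4 members: Sftpb (1.11 ± 0.38), Lpcat1 (0.81 ± 0.25), Abca3 (0.69 ± 0.26) and Etv5 (0.56 ± 0.22, log2 fold change and SE). Of all genes, 14.4% had such a p. The lowest adjusted p was 0.194 (Lpcat1). All 19-week mice were above all 11-week mice for Sftpb and Abca3, and 0.707% of all genes showed this. Sftpa1 and Sftpd differed by -0.12 ± 0.18 and 0.24 ± 0.23, with overlapping groups. The GC slope also differed between these groups, by the means given above, and with the slope as a covariate the Sftpb difference was 0.37. DESeq2 and voom called 0 of 10. Isotype and untreated mice at 19 weeks differed in 0 of 10 members by edgeR, DESeq2 and voom and in 0% of all genes by edgeR, with 1 unadjusted p under 0.05 (Etv5, -0.50 ± 0.21).

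Pairs of the 10 genes fell into patterns across mice. Of 45 pairs, Sftpb and Napsa had the highest correlation over the 43 libraries, with Pearson r = 0.94 and Spearman rho = 0.90 (permutation p 1e-05 each, adjusted 2.8e-05 and 3.2e-05). The r was 0.93 without the 2 libraries farthest from the median of Sftpb and 0.94 within groups. After the GC slope was regressed out it was 0.61, below that of Sftpa1 with Sftpd (0.90) and of Abca3 with Lpcat1 (0.84). Etv5 and Lpcat1 had r = 0.88 and rho = 0.84 (permutation p 1e-05 each), with 0.87 without 2 libraries and 0.90 within groups. Sftpa1 and Sftpd, the neighbours on chromosome 14, had r = 0.76 (permutation p 1e-05) and rho = 0.45 (permutation p 0.0027, adjusted 0.0052). Their r was 0.59 without the 2 farthest libraries and 0.25 within groups, so the relation was weaker once the differences between groups were taken out. Abca3 and Lamp3, both of lamellar bodies, ran against each other, with r = -0.45 (permutation p 0.0024) and rho = -0.34 (permutation p 0.025, adjusted 0.041), and -0.56 within groups. These pairs share libraries and the scaling, so they are not independent of each other.

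The genes that regulate the surfactant genes were measured as a list of 7. At 11 weeks 0 of 7 were called, and at 19 weeks 3 of 7 were higher and 0 lower, with a median of 0.53 against 0.01 for all genes, of which 19.2% were called higher. In the isotype group, with the same length of exposure, 0 of 7 were called against saline (median 0.15). The 3 were Nkx2-1 (0.77 ± 0.22, adjusted p 0.00694), the lung lineage factor, Cebpa (1.81 ± 0.61, adjusted p 0.0208) and Srebf1 (1.53 ± 0.61, adjusted p 0.0475), which drives lipid synthesis. Foxa1, Foxa2, Gata6 and Fgfr2 were not called. In the combination against isotype Nkx2-1 (0.62 ± 0.21) and Foxa2 (0.64 ± 0.21) were called higher, with edgeR adjusted p of 0.0418 and 0.0385. Of all genes 12.6% were called higher in that comparison.

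Of 10 genes for the phospholipid of surfactant, 0 were called at 11 weeks. At 19 weeks 3 were higher and 1 lower, with a median of 0.00 against 0.01 for all genes. Of all 15979 genes 5562 were called at 19 weeks, 3072 of them (19.2%) higher, and 8.65% were called higher at 11 weeks. Fasn, the fatty acid synthase, rose by 2.11 ± 0.62, Scd1, a desaturase, by 1.07 ± 0.35 and Elovl1, an elongase, by 1.17 ± 0.31 (log2, SE, edgeR adjusted p 0.00835, 0.0174 and 0.00401). Chpt1, the choline phosphotransferase, fell by 0.82 ± 0.26 (adjusted p 0.0139). In the combination against isotype Elovl1 was higher, while Pcyt1a (-1.13 ± 0.33), Acaca (-1.25 ± 0.44) and Scd1 (-0.99 ± 0.35) were lower. Of all 15979 genes 3029 were called in this comparison, 2019 of them higher. Without the libraries of high slope 686 of 16414 genes were called. Pcyt1a encodes the rate-limiting enzyme of phosphatidylcholine synthesis.

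Of 9 genes for processing, secretion and turnover of surfactant, 4 were higher and 1 lower at 11 weeks, and 5 higher and 1 lower at 19 weeks (median 0.60). Of all genes 8.65% were called higher at 11 weeks and 19.2% at 19 weeks. P2ry2, the ATP receptor that triggers secretion, rose by 3.25 ± 0.32 at 19 weeks (edgeR adjusted p 9.95e-10). Csf2ra and Csf2rb, the GM-CSF receptor chains through which macrophages gain the ability to clear surfactant, rose by 2.17 ± 0.30 and 2.82 ± 0.29. Abcg1, a lipid exporter of macrophages, rose by 1.23 ± 0.24 and Ctsh, a protease of SP-B processing, by 0.60 ± 0.21. Adgrf5, a receptor that limits the surfactant pool, fell by 1.77 ± 0.45 (adjusted p 0.00261). At 11 weeks the gene called lower was Prdx6 (-1.06 ± 0.29, edgeR adjusted p 0.00922), and Adgrf5 was not called (adjusted p 0.0769). Several of these genes are also expressed by leukocytes, whose 4 markers summed to 571 to 900 CPM in saline and 776 to 2411 CPM at 19 weeks, with Laptm5 called higher and Ptprc lower. None of the 4 was at 0. Of 5 alveolar macrophage markers 0 were called higher and 2 lower at 19 weeks. Their sums were 133 to 411 CPM in saline and 57.7 to 262 CPM at 19 weeks. The part of leukocytes and of other cells in the levels of these genes was not tested.

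Of 9 other type 2 genes, 2 were higher at 11 weeks and 4 at 19 weeks, and 0 were lower (median 0.89 at 19 weeks). The shares of all genes called higher were 8.65% at 11 weeks and 19.2% at 19 weeks. Muc1 (1.96 ± 0.29), Hc, the complement component C5 (1.66 ± 0.39), Egfl6 (1.31 ± 0.46) and Lgi3 (1.20 ± 0.37) were called at 19 weeks. Cxcl15, a chemokine of lung epithelium, was not (0.15 ± 0.27, adjusted p 0.673). Of 9 genes of damage-associated transitional epithelium, a state between type 2 and type 1 cells, 3 were higher at 11 weeks, 4 at 19 weeks and 0 lower. Lgals3 (4.02 ± 0.51), which macrophages also express strongly, Cldn4 (2.58 ± 0.62), Areg (1.27 ± 0.34) and Cdkn1a (1.06 ± 0.35) were called, while the keratins Krt8 (0.32 ± 0.30) and Krt18 (0.46 ± 0.32) were not.

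Markers of other lung cells moved in the same comparisons. Of all 15979 genes 5562 were called at 19 weeks, 3072 of them higher. At 19 weeks the type 1 cell markers Hopx (-2.19 ± 0.27) and Rtkn2 (-1.90 ± 0.34) were lower and the other 4 of 6 were not called. The summed level of the 6 was 2350 to 2891 CPM in saline and 1381 to 2770 CPM at 19 weeks. All 4 club cell markers were lower, with sums of 11227 to 20033 CPM in saline and 2916 to 5771 CPM at 19 weeks. All 4 goblet cell markers were higher, with sums of 9.88 to 53.8 CPM and 97.9 to 647 CPM. Of 4 markers of all epithelium only Epcam was called higher (0.65 ± 0.21), and their sum was 412 to 610 CPM in saline and 480 to 735 CPM at 19 weeks. Of 4 endothelial markers Cdh5 alone was lower, with sums of 1323 to 1836 CPM and 546 to 1120 CPM. None of these markers was at 0 in a group. The part of shifts in cell makeup in the levels of the surfactant genes was not tested.

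Likeness to the 10 genes was measured as the Pearson correlation of each of 11829 genes of at least 5 CPM with the members' mean standardised log2 CPM, over 43 libraries. The mean itself correlated with the GC slope at 0.73. The most alike were Kcnq1 (0.90), a potassium channel, Hkdc1 (0.89), a hexokinase domain protein, Celsr1, Dpp9 and Slc25a44 (0.88 each), and Hexa, Tmem268 and Renbp (0.87 each). After the slope was regressed out the closest included C6 (0.81), a complement component, Hkdc1 (0.79), Kcnq1 and Gde1 (0.76 each), Tmem268 (0.75), and Nek6 and Abcg1 (0.74 each). Kcnq1, Hkdc1 and Tmem268 were thus on both lists. With Spearman's rho in place of r the closest were Mlc1 (0.94), Tmc4 (0.92), and Lgi3, Lztr1, Mid1ip1, Slc25a44 and Vrk3 (0.91 each), so of the 8 named by r only Slc25a44 stayed among the closest.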

How the data were processed

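Whole-lung RNA of 43 mice was sequenced from stranded mRNA libraries (500 ng of RNA, 12 PCR cycles, single reads of 33 cycles), per the labels' protocols. The authors deposited expected counts per gene for all libraries in 1 table, of which 76.8% of the values above 0 are exactly whole as deposited (no tolerance). The genome build was mm10, per the submitters' processing notes. For the aligner and counter, the name was not given in the sources used here.

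The expected counts were rounded. Genes were filtered with filterByExpr and scaled with TMM, and 1 quasi-likelihood model with 7 group means was fitted with edgeR 4.0.16 (R 4.3.3) with robust settings (36 residual degrees of freedom). The 2-sided p values were adjusted over the 15979 genes tested (Benjamini-Hochberg), and an adjusted p under 0.05 was called. The ± beside a log2 fold change is its SE, that beside a level or share its SD. Log2 CPM used a prior count of 1. The model was tested on simulated data in which no GC slope was put in, so that test does not cover the effect of the slope. Transcript GC and length were taken from GENCODE, positions and promoters from RefSeq (GRCm38.p6).

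Members and gene lists were chosen with earlier results of these data known. The rule for named genes took the members, the genes of 5 pathway lists and of the marker lists, and the 8 genes most like the members by each measure. A gene among these is not reported here. Alternatives were DESeq2 1.42.0, scaling by its size factors or by upper quartiles, no filter or 1 CPM in 5 libraries, the replicate number as a block, the GC slope as a covariate, leaving out the libraries of high slope, the compared groups alone, limma 3.58.1 voom with sample weights, and leaving out each library. Plain library totals were added after seeing the data. Labels do not say how mice were housed or processed, so p values measure the spread between these mice. No replicate pair agreed within counting noise: over 113 pairs the lowest ratio of observed to counting variance was 14.1.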

Additional observations from a re-analysis of the deposited data

Results flagged for a closer look

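Each member was checked in each group, 70 checks in all, for a highest or lowest mouse far from the rest by Dixon's criterion, and 3 were found; chance gives about 1 in 20. Sftpa1 in replicate 7 at 19 weeks was the lowest of its group, at a log2 CPM of 11.34 against 12.00 in the nearest mouse. Napsa in saline replicate 5 was at 7.26 against 7.89. Slc34a2 in anti-IL-4Rα replicate 2 was at 10.07 against 11.30, and the same mouse had the highest Lamp3 level of its group. The Sftpa1 and Slc34a2 libraries are among the 10 with a GC slope above 0.75.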

How the results depend on the processing

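Directions of members called in the main edgeR fit did not reverse under any setting run. That does not cover members called only by another setting. In the combination against isotype voom called Napsa and Sftpb higher, while without the libraries of high slope their estimates were -0.39 and -0.63. Where the number of called members moved by over 1.5 times, the values were as follows. At 11 weeks against saline it was 2, and 4 without the libraries of high GC slope, in the compared groups alone and with voom. At 19 weeks against saline it was 8, and 4 with the slope as a covariate and 3 with plain totals. For isotype against saline it was 4, and 7 without the libraries of high slope and with voom, 1 with plain totals, and 2 to 4 with 1 mouse left out. For the combination against saline it was 7, and 3 with the slope as a covariate, 4 without the libraries of high slope and 2 with plain totals. For the combination against isotype it was 2, and 1 without the libraries of high slope and in the compared groups alone, 0 with plain totals, 7 with voom, and 0 to 3 with 1 mouse left out. Against anti-IL-33 voom gave 3, and against anti-IL-4Rα 4, with 0 to 1 when 1 mouse was left out. Fewer samples enter the fits without the libraries of high slope, of the compared groups alone and with 1 mouse left out. The cause of these differences was not tested for any setting.

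With the replicate number as a block, 0 members were called in the combination against isotype (Sftpd and Lamp3 both lost), 7 at 19 weeks against saline (Abca3 lost), and the other counts were as without the block. The labels do not say whether the numbers pair the mice. Of 88 same-numbered pairs 31 correlated above 0.1, and 5 of 43 libraries correlated best with their own number. Such correlations cannot show that same-numbered mice were not housed or processed together. Over all genes the calls in the combination against isotype were 3029, and 551 with the block, 686 without the libraries of high slope, 730 with plain totals, 1824 in the compared groups alone and 9262 with voom. At 11 weeks they were 2459, and 4516 with the slope as a covariate, 5873 without the libraries of high slope, 6038 in the compared groups alone and 8618 with voom. With isotype against saline they were 4050, and 8360, 8078 and 10517 in the last 3 of these settings; at 19 weeks voom gave 10325 against 5562. In the combination against saline they were 7681, and 3729 with the slope as a covariate, 2912 without the libraries of high slope and 4845 in the compared groups alone. Where edgeR called few genes the settings differed most: 17 between 19 and 11 weeks became 0 with the block and 305 with voom, 7 for the combination against anti-IL-33 became 1 in the compared groups alone and 7801 with voom, 19 against anti-IL-4Rα became 0 with the block and 8510 with voom, and 0 for the interaction became 5525 with voom.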
